A study of Mus musculus with 2 samples.

Results

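A set of 9 genes for amino acid transporters that reabsorb filtered amino acids in the proximal tubule were followed, probe set by probe set, in RNA of glomerular preparations from mouse kidney. Every probe set of the array whose annotated symbol was exactly Slc7a7, Slc7a8, Slc7a9, Slc7a13, Slc3a1, Slc3a2, Slc6a18, Slc6a19 or Slc1a1 was taken, which gave 14 probe sets for 9 of the 18193 genes named by a single symbol. The samples were isolated glomeruli of 20-week-old male KK/Ta mice, an inbred strain prone to obesity and type 2 diabetes, kept on a high-fat diet (HFD, 1 array) or on normal-fat chow (Chow, 1 array). No further genotype or treatment is named for either diet. The design text mentions 3 mice, without saying how many stood behind each array or whether their RNA was pooled. Since a diet is represented by 1 array, the spread between replicates is unknown: no p-value or standard error is given, and each value describes these 2 RNA preparations.

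Amino acids pass the glomerular filter freely and are taken back by the epithelium of the proximal tubule, which lies outside the glomerulus. Uptake across the brush border uses sodium-coupled carriers and exchangers, and a second set of exchangers releases the amino acids on the basolateral side towards the blood. Several of the exchangers are built of a heavy chain (Slc3a1 or Slc3a2), which carries the complex to the membrane, and a light chain of the Slc7 family, which transports. Loss of some of these carriers in humans causes inherited amino acid losses in urine, such as cystinuria.

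Of the 14 probe sets, 11 were above a floor set at the median signal of each array (a deposited intensity of 42.3 for HFD and 44.9 for Chow), 1 was above it on the HFD array only and 2 were under it on both arrays. Each of the 9 genes thus had at least 1 probe set with a value. Differences are HFD minus Chow on the log2 scale, taken after each array was centred on its own median and any lower value was set to the floor. Centring added 0.083 to every difference. Among all 23419 probe sets above the floor on at least 1 array, 0.615% were at least 2-fold higher in HFD, 0.295% at least 2-fold lower, 3.66% at least 1.5-fold higher and 2.58% at least 1.5-fold lower. Of the 12 transporter probe sets with a value, 1 was at least 2-fold higher (Slc3a1), 5 were at least 1.5-fold higher, and 0 were at least 1.5-fold lower. The 5 belonged to Slc3a1, Slc1a1, Slc7a13, Slc6a19 and Slc6a18, all of them brush border carriers or their heavy chain. Of the 12, 10 were higher by any amount (9 of the 11 above the floor on both arrays), against 56.6% of all probe sets. The median transporter difference was 0.35 (1.27-fold), beside 0.038 for all probe sets above the floor. In bulk RNA of this kind, fewer cells of a type and less RNA per cell cannot be told apart.

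**Figure D1:**
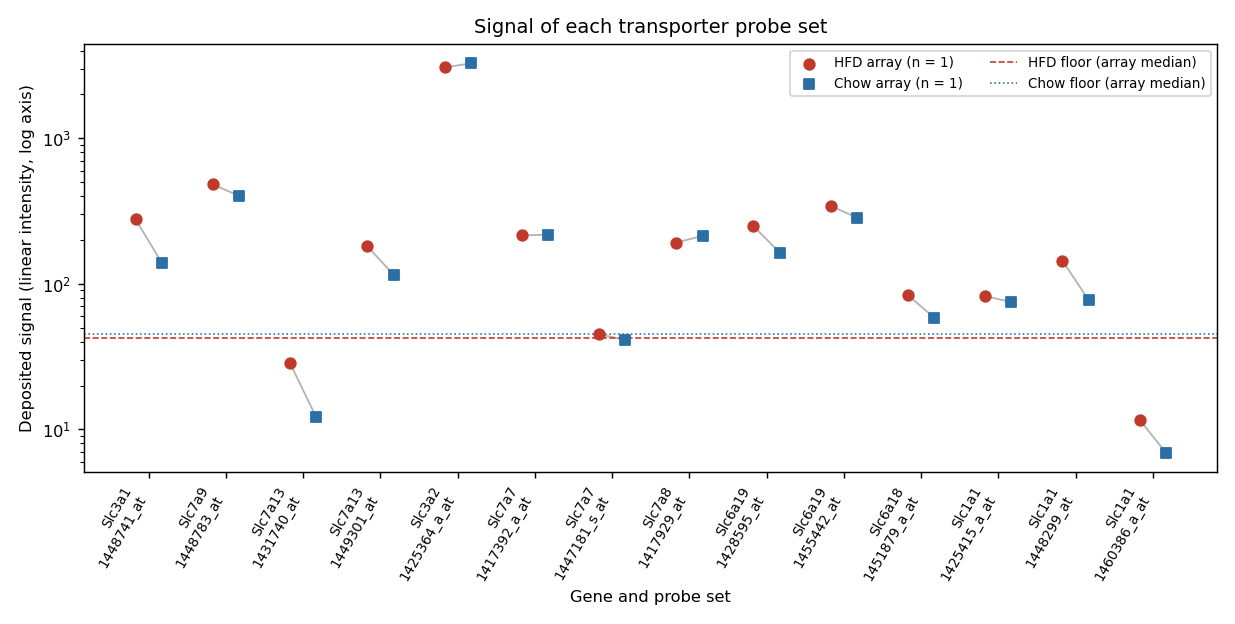
Deposited signal of the 14 transporter probe sets (linear intensity on a log axis) in HFD (circles) and Chow (squares), 1 array each, with lines joining the pair and broken lines at the floor of each array. Signals are to be compared within a pair only: the Slc3a1 pair spans 277 to 139.6, whereas the Slc3a2 pair lies at 3069.9 and 3268.

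The heavy chain of the brush border, Slc3a1, differed most. Slc3a1 encodes rBAT, which carries the cystine and dibasic amino acid exchanger to the apical membrane. Its probe set, 1448741_at, had a signal of 277 in HFD and 139.6 in Chow, both more than 3 times the floor. The difference was 1.07 log2 units (2.10-fold higher in HFD). Among the 1000 probe sets nearest to it in mean signal, differences scattered by 0.26 log2 units (scaled median absolute deviation), so that of Slc3a1 was 4.06 times this scatter. The scatter holds measurement noise and real differences together. Without centring the Slc3a1 ratio was 1.98, just under 2-fold, and with a floor at the 70th percentile, which lies above its Chow signal, the difference was a bound of 0.57.

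The other heavy chain, Slc3a2, encodes 4F2hc (CD98), which is made by many cell types and serves the basolateral exchangers in the tubule. Its probe set, 1425364_a_at, had a signal of 3069.9 in HFD and 3268 in Chow. These values differed by -0.0069 log2 units after centring, against a scatter of 0.17 at that signal. The arrays thus gave a near 2-fold difference for 1 heavy chain and nearly equal signals for the other.

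After Slc3a1, the next largest difference was that of Slc1a1 in its probe set 1448299_at (0.99), but Slc1a1 stood at 0.22 in 1425415_a_at. The stretches just before the annotated starts of both heavy chain genes and of Slc1a1 are shown because promoters can be compared where members of a family differ. Each is 250 bases long, 5′ to 3′ on the gene's own strand, from RefSeq on GRCm38.p6: Slc3a1 at chr17:85028097-85028346 (plus strand), Slc3a2 at chr19:8713898-8714147 (minus strand) and Slc1a1 at chr19:28834885-28835134 (plus strand). Capitals mark a match to CAAAGTCCA, the letters of a motif of HNF4, a nuclear receptor of proximal tubule cells.
Slc3a1: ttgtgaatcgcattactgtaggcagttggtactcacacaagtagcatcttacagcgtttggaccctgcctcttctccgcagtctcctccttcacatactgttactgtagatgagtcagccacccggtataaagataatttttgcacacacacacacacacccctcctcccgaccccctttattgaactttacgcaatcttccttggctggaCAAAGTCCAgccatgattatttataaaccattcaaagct
Slc3a2: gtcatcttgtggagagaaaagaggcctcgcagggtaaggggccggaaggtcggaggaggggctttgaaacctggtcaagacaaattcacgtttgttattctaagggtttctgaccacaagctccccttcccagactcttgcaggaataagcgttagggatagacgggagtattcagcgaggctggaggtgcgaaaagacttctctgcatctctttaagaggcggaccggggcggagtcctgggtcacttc
Slc1a1: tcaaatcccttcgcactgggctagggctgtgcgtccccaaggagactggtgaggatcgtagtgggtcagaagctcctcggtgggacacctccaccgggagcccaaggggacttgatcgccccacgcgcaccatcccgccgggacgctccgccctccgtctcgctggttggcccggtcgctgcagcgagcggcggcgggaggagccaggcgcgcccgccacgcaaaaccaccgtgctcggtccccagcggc

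The window of Slc3a1 held 45.6% G and C with 6 CpG dinucleotides, that of Slc3a2 53.6% with 11, and that of Slc1a1 70.4% with 27. The median over all 32851 RefSeq windows of this length was 52.4% with 6. Slc3a1 and Slc1a1 therefore had windows of unlike base composition. CAAAGTCCA, searched on both strands, was found in 0.384% of all windows and in 1 of the 12 windows of the transporters (7 of the 9 genes had at least 1 window), where it begins 39 bases before the start of Slc3a1. GTTAAT, a part of the motif of HNF1, another factor of proximal tubule cells, was found in 6.43% of all windows and in 1 transporter window, of Slc7a7. Slc7a13 and Slc6a18 were not searched. A match describes letters and not a bound site.

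The light chains that work with rBAT stood higher in HFD, by less than Slc3a1. Slc7a9 encodes b0,+AT, the transporting subunit of the cystine exchanger and the second gene of human cystinuria. Its probe set, 1448783_at, had a signal of 482 in HFD and 403 in Chow, a difference of 0.34 (1.27-fold) against a scatter of 0.21. Slc7a13 encodes AGT1, a carrier of aspartate, glutamate and cystine in the last, straight segment of the mouse proximal tubule, where it also pairs with rBAT. Its probe set 1449301_at had a signal of 181 in HFD and 115 in Chow, a difference of 0.73 (1.66-fold) against a scatter of 0.30. A second Slc7a13 probe set, 1431740_at, was under the floor on both arrays (28.4 in HFD and 12.1 in Chow) and gives no fold change. The 3 genes of the rBAT complexes thus stood higher in HFD, by 1.27-fold to 2.10-fold.

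Sodium-coupled carriers of neutral amino acids formed a second brush border group with higher signals in HFD. Slc6a19 encodes B0AT1, the main carrier of neutral amino acids in the early proximal tubule, defective in human Hartnup disorder. Its probe set 1428595_at had a signal of 249 in HFD and 164 in Chow, a difference of 0.69 (1.61-fold) against a scatter of 0.28. Its brighter probe set, 1455442_at, had 344 in HFD and 284 in Chow, a difference of 0.36 (1.28-fold). Both Slc6a19 probe sets therefore went the same way, with sizes of 0.69 and 0.36 log2 units. Slc6a18 encodes B0AT3, a carrier of glycine and other neutral amino acids, and lies next to Slc6a19 on chromosome 13 with 0 protein-coding genes between them. Its only probe set, 1451879_a_at, had a signal of 83.5 in HFD and 58.6 in Chow, less than 2 times the floor on both arrays. The difference was 0.60 (1.51-fold) against a scatter of 0.37, and it was 0.51, under 1.5-fold, without centring.

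Slc1a1, the carrier of glutamate and aspartate known as EAAC1 or EAAT3, gave values that depended on the probe set. Probe set 1448299_at had a signal of 144 in HFD and 77.2 in Chow, a difference of 0.99 (1.98-fold) against a scatter of 0.33. Probe set 1425415_a_at had 82.3 in HFD and 74.9 in Chow, a difference of 0.22 (1.16-fold) against a scatter of 0.40. The third, 1460386_a_at, was under the floor on both arrays, with 11.6 in HFD and 6.92 in Chow. Those with a value were both higher in HFD, by 1.98-fold and 1.16-fold, so that the size of the Slc1a1 difference is not settled by these arrays.

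**Figure D2:**
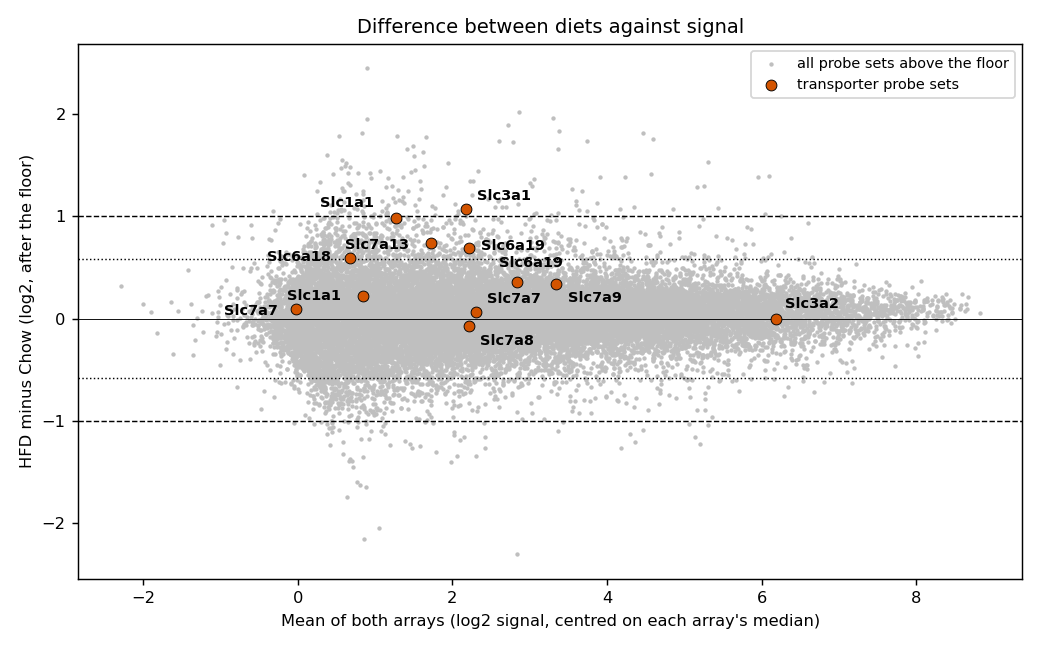
HFD minus Chow difference (log2, vertical axis) against the mean centred log2 signal of both arrays (horizontal axis) for all 23419 probe sets above the floor on at least 1 array (grey) and the 12 transporter probe sets with a value (orange), with broken lines at 2-fold and dotted lines at 1.5-fold. Slc3a1 lies above the upper 2-fold line at 1.07, Slc1a1 just under it at 0.99, and Slc3a2, Slc7a7 and Slc7a8 lie near 0.

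The basolateral light chains had nearly equal signals with both diets in their probe sets above the floor on both arrays. Slc7a7 encodes y+LAT1, which exports dibasic amino acids in exchange for neutral ones with 4F2hc and is defective in human lysinuric protein intolerance. Its probe set 1417392_a_at had a signal of 215 in HFD and 218 in Chow, a difference of 0.063 after centring and -0.020 without it. Its second probe set, 1447181_s_at, was at the floor (45.1 in HFD and 41.2 in Chow), which gives a bound of at least 1.06-fold higher in HFD. Slc7a8 encodes LAT2, an exchanger of neutral amino acids that also pairs with 4F2hc. Its probe set, 1417929_at, had a signal of 192 in HFD and 214 in Chow, a difference of -0.069 against a scatter of 0.27. For 1417392_a_at and 1417929_at the difference after centring did not reach 0.1 log2 units in size. The value of 1447181_s_at is a lower bound, and its difference was 0.21 with no floor.

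The transporters were also sorted by the membrane they serve, a grouping made from textbook roles after the values were known. The basolateral group holds 3 genes only, and whether the differences follow the membrane was not tested. Basolateral carriers outside the set included Slc22a6 at 1.21, Slc4a4 at 0.10 to 0.90 and Slc16a10 at -0.52, above the floor on both arrays. The 8 apical probe sets with a value (6 genes) differed by 0.22 to 1.07, with a median of 0.64 (1.56-fold). With the floor at the 70th percentile, only the apical probe sets of Slc3a1, Slc7a9 and Slc6a19 kept a value, and their median was 0.39. The 3 basolateral ones above the floor on both arrays (1 each for Slc3a2, Slc7a7 and Slc7a8) differed by -0.069 to 0.063. The fourth, Slc7a7 1447181_s_at, has a bound of 0.090 and stood at 0.21 with no floor, close to the lowest apical value of 0.22. With that bound the basolateral median was 0.028, and it was below 0 in 6 of 9 alternative settings, among them those without centring (-0.055), with quantile normalization and with loess. All 8 apical probe sets were higher in HFD, against 56.6% of all probe sets above the floor. Since the group was formed with the values known, this count is no independent result. The smaller apical differences stand beside those of the array's control probe sets for Gapdh and beta-actin, which were higher in HFD by 0.14 to 0.28.

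Proteins that carry or place these transporters were taken as a list of 8 genes, of which 6 had a probe set under their symbol and 5 were above the floor. Of 11 such probe sets, 3 were above it in HFD only, where a higher value follows from the floor. Of the 8 above it on both arrays, 6 were higher in HFD (against 56.6% of all probe sets), 0 reached 1.5-fold and the median was 0.22. Over all 11 the median was 0.28, and it ran from 0.17 without shared probe sets to 0.52 with no floor or with 1 probe set per gene. Collectrin (Cltrn), which brings B0AT1 and B0AT3 to the kidney brush border, had a signal of 1824 in HFD and 1987 in Chow, a difference of -0.039. The brush border scaffold gene Pdzk1 had 496 in HFD and 358 in Chow (0.55), and a second scaffold, Slc9a3r1, had 1035 and 904 in its most different probe set (0.28). Hnf4a, the gene of the nuclear receptor HNF4, had 488 in HFD and 359 in Chow in its brightest probe set (0.53), and Slc6a20b 167 and 123 (0.52). Of the 4 Hnf4a probe sets, 3 were close to the floor.

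Other amino acid and peptide transporters, 35 genes chosen as further members of the families, were below the floor for 15 genes. The 36 probe sets above it had a median difference of 0.20, with 25 higher (2 of them above the floor in HFD only) and 11 lower. Among them 3 were at least 1.5-fold higher, 0 at least 1.5-fold lower and 0 past 2-fold. Of all probe sets, 56.6% were higher and 3.66% at least 1.5-fold higher. Slc6a9, the glycine transporter GlyT1, had a signal of 186 in HFD and 105 in Chow (0.90), but its other probe set went the opposite way (210.4 in HFD and 269 in Chow, -0.27). Slc25a13, a mitochondrial exchanger of aspartate and glutamate, differed by 0.67, and Slc38a9, a lysosomal amino acid sensor, by 0.66 in 1 of its 6 probe sets above the floor, with the other 5 between -0.20 and 0.20. Slc16a10, the basolateral carrier of aromatic amino acids TAT1, had 68.0 in HFD and 104 in Chow (-0.52) and a second probe set above the floor in HFD only.

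Enzymes and peptidases that handle amino acids in the proximal tubule were represented by 18 probe sets above the floor, for 14 of 23 listed genes. Of them, 16 were higher in HFD (15 of the 17 above the floor on both arrays), against 56.6% of all probe sets. The median was 0.34, and 4 were at least 1.5-fold higher, against 3.66% of all probe sets. The 4 were the probe sets of 2 brush border peptidases. Dpep1, a dipeptidase, had 248 in HFD and 131 in Chow (2.00-fold) in 1 probe set, and 195 and 106 (0.96) in the other. Mep1a, the alpha chain of meprin, had 289 in HFD and 172 in Chow (0.83), and 497 and 316 (0.74). Enpep, the aminopeptidase of angiotensin, which podocytes also make, had 12783 in HFD and 13198 in Chow (0.037).

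Most other markers of the proximal tubule were higher on the same array, but Aqp1 was lower (1591 in HFD and 1994 in Chow, -0.24). Of 27 such genes, 25 were above the floor and Slc22a19 and Fabp1 were under it. Of their 35 probe sets above the floor on both arrays, 33 were higher in HFD, 16 by 1.5-fold or more and 2 by 2-fold or more. Of all 21617 probe sets above the floor on both arrays, 12343 were higher, 712 by 1.5-fold or more and 116 by 2-fold or more. A further 4 marker probe sets were above the floor in HFD only. The median difference was 0.56 with and without those 4, and the list had a summed signal of 31219.5 in HFD and 22543.5 in Chow. Summed signals, here and below, are of deposited intensities without centring, unlike the medians. The defining endocytic receptor Lrp2 (megalin) had 273 in HFD and 186 in Chow in its brighter probe set, a difference of 0.64, and the glucose carrier Slc5a2 of the early segment had 137 and 89.1 in 1 probe set (0.71) and 743 and 772 in the other (0.029). The largest of the list were Slc13a1, the sulphate carrier (1751 in HFD and 528 in Chow, 1.81, with a second, dim probe set at -0.28), the organic anion carrier Slc22a6 (308 and 141, 1.21), Cyp2e1 (2239 and 1208, 0.97) and Pck1 (183 and 98.7, 0.97, in its dimmer probe set above the floor). Markers of loop, distal tubule and collecting duct, led by Slc12a3 (0.83), Calb1 (0.82), Cldn8 (0.80) and Slc12a1 (0.71), were higher too, in 10 of 11 probe sets with a median of 0.61 and a summed signal of 11348 in HFD and 8314 in Chow. The part of tubule RNA in the transporter differences was not tested.

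Podocyte, endothelial and mesangial markers had medians between -0.079 and 0.21. Of all probe sets above the floor, 56.6% were higher in HFD. The 14 podocyte probe sets had a median of -0.079, with 5 higher and 9 lower. Their summed signal, without centring, was 74932 in HFD and 81740.1 in Chow. Dach1 stood at -0.78, -0.58 and -0.20 in its 3 probe sets and Thsd7a at -0.42 and -0.22, while Podxl stood at -0.0029 in its brighter probe set and 0.23 in the other. Endothelial probe sets had a median of 0.16 (11 of 14 higher), with Plvap at 0.50, Cdh5 at 0.39 and 0.34 and the 4 probe sets of Flt1 between -0.077 and 0.23. Mesangial and smooth muscle ones had a median of 0.21 (6 of 8 higher), with Tagln at 0.68, Acta2 at 0.53, Itga8 at 0.27 and 0.15, and Pdgfrb at -0.12 in its brighter probe set and 0.29 in the other. Macrophage and other leukocyte markers, from cells that also make 4F2hc and y+LAT1, were higher in HFD for 16 of the 17 probe sets above the floor on both arrays, with a median of 1.38. With 8 more that were above it in HFD only, the median was 1.22 and the summed signal was 7904 in HFD and 3256 in Chow. H2-Eb1 stood at 1.96, H2-Aa at 1.90 and 1.38, Cd74 at 1.84 and Cybb at 1.79, each above the floor on both arrays, while Cd3e was under the floor. The lower one was a probe set of Laptm5 (57.0 in HFD and 114 in Chow, -0.91), a gene that stood at 1.77 and 0.47 in others. Beside the leukocyte markers, Slc3a2 and Slc7a7 differed by -0.0069 and 0.063, the second turning to -0.020 without centring.

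**Figure D3:**
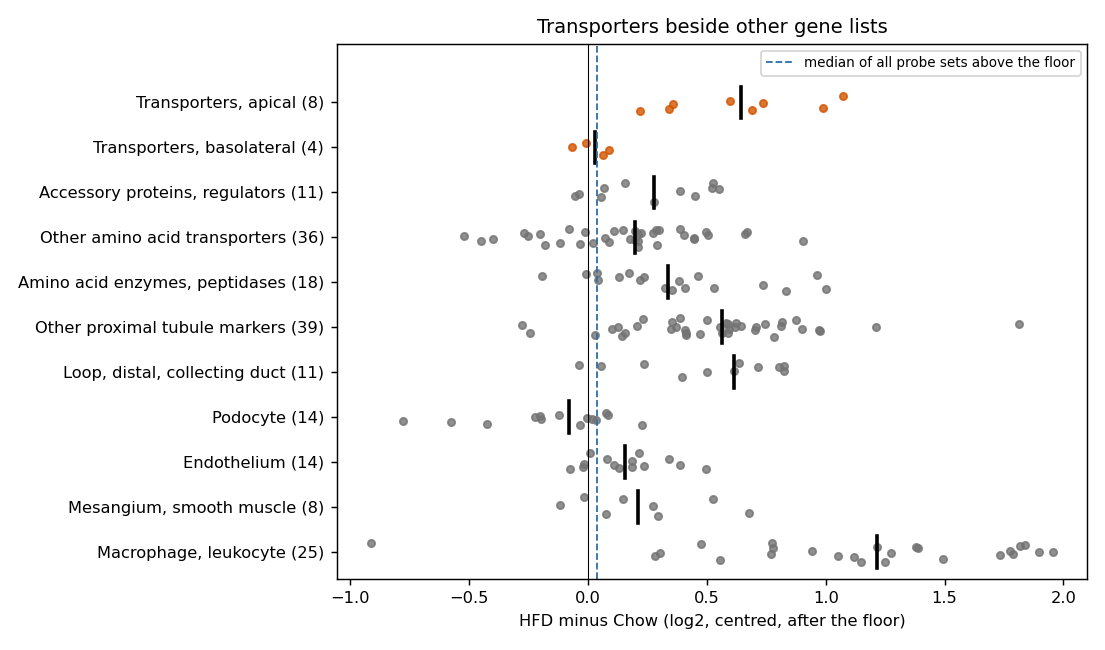
HFD minus Chow difference (log2, centred, after the floor) of each probe set above the floor on at least 1 array (points, bounds included) in the transporters and in 9 other gene lists, with the number of probe sets in brackets, the list median as a black bar and the median of all probe sets above the floor as a broken line. The apical transporters have a median of 0.64, beside 0.56 for other proximal tubule markers and 0.61 for loop, distal and collecting duct markers, while the basolateral ones, with 1 bound among them, lie at 0.028, which turns to -0.055 without centring, and podocyte markers at -0.079. The basolateral group holds 3 genes only.

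**Figure D4:**
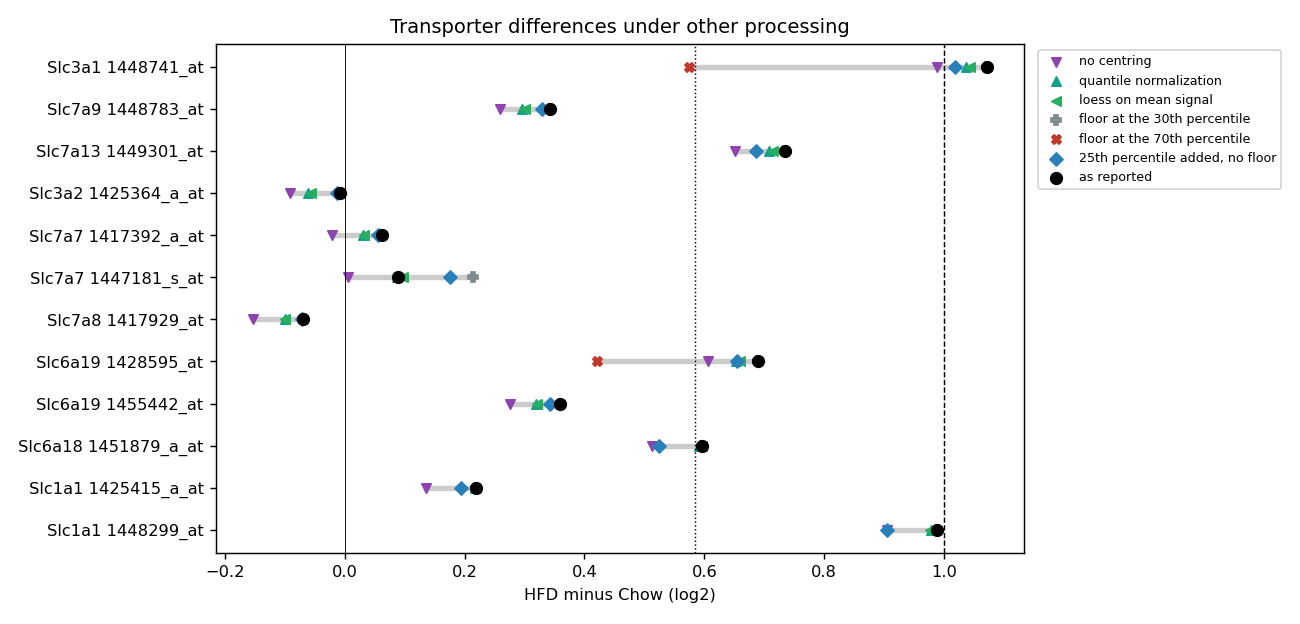
HFD minus Chow difference (log2, horizontal axis) of the 12 transporter probe sets with a value, as reported (black) and under other processing (coloured marks, with a grey line over the whole range), with lines at 1.5-fold (dotted) and 2-fold (broken). Slc3a1 runs from 0.57 to 1.07 and crosses the 2-fold line, and the first Slc7a7 probe set runs from -0.020 to 0.063 and crosses 0.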

How the data were processed

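Total RNA of isolated glomeruli was purified on RNeasy columns, amplified by two-cycle biotin labelling and hybridised to Affymetrix Mouse Genome 430 2.0 arrays, per the labels' protocols, 1 array per diet. GeneSpring 7.3.1 is named by the design text for the comparison. Linear intensities, 1 per probe set and array, were deposited. Their summarisation and scaling by the authors are not given in the sources used here. In all there were 45101 probe sets with no detection calls. From these, 64 control probe sets were set aside, the intensities were put on a log2 scale, each array was centred on its median, and a floor was set at the 50th percentile. Both arrays carry 1 sample, which limits the precision. Symbols came from the platform annotation of 2016, and all 14 transporter probe sets kept theirs through RefSeq (GRCm38.p6).

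Named genes are all 9 transporters and, of each of 9 lists, up to 4 probe sets above the floor on both arrays with the largest absolute difference. Cltrn, Lrp2, Slc5a2, Slc4a4, Aqp1, Laptm5, Enpep, Slc38a3, Slc6a6, genes under the floor and further probe sets were named after their values were seen. Members and lists were chosen with earlier results of these data known. No test was made between the diets. Alternatives were no centring, quantile normalization, loess (span 0.3), a lower floor (30th percentile), a higher one (70th percentile), none, the 25th percentile added before log2, probe sets ending _s_at or _x_at left out, 1 probe set per gene, and a 3-fold threshold. The steps were tested on simulated data. The planted differences lay only in probe sets above the floor on both arrays, with less scatter there than in these data. Python 3.11.15, NumPy 2.4.6, pandas 2.3.3 and statsmodels 0.14.6 were used.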

Additional observations from a re-analysis of the deposited data

How the results depend on the processing

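Over 9 alternative settings the 12 transporter probe sets gave 99 values, of which 97 lay in the reported direction and within the scatter of probe sets of like signal. Some settings leave a single probe set unchanged by construction. Without centring, Slc7a7 (1417392_a_at) turned to -0.020 and the median of all probe sets to -0.045, and 0 transporter probe sets were at least 2-fold higher. With the floor at the 70th percentile, 7 probe sets remained, 0 were at least 2-fold and 0 at least 1.5-fold higher, and Slc3a1 was a bound of 0.57, since the Chow signals of the dimmer probe sets are then raised to the floor. With the floor at the 30th percentile 2 were at least 2-fold higher, the second being a bound for Slc7a13 (1431740_at, at least 2.35-fold). At a 3-fold threshold the count was 0. The basolateral median turned to -0.055 without centring, -0.016 with quantile normalization, -0.012 with loess and -0.0069 with the 70th percentile floor, without shared probe sets and with 1 probe set per gene. The transporter median ran from 0.27 to 0.36, and that of the apical members from 0.39 (70th percentile floor, Slc3a1, Slc7a9 and Slc6a19 only) to 0.69. No paired analysis was possible because each diet has 1 array, which also leaves no replicate to be left out. Dim signals close to the floor limit Slc6a18 and Slc1a1.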

Other observations

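Outside the transporters above, Slc38a3, which encodes the glutamine carrier SNAT3 of the basolateral membrane in the proximal tubule, was above the floor in HFD only, in 1 of its 2 probe sets. That probe set had a signal of 60.03 in HFD and 9.81 in Chow, a bound of at least 1.42-fold higher in HFD, and the other was under the floor on both arrays. Slc6a6, the taurine transporter, had bright probe sets with 7815 in HFD and 6778 in Chow (0.29) and with 4865 in HFD and 4229.97 in Chow (0.29), but a dim one with 55.0 in HFD and 77.0 in Chow (-0.40). Both genes were named after their values were seen.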
